A study of Mus musculus with 9 samples.

Results

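Macrophages treated with LPS plus skatole (LPS + Ska) were compared with macrophages treated with the vehicle DMSO, which describes the activated state that was present while skatole was in the medium. The comparison took every gene with a mean of at least 1 TPM over the 6 columns of these groups, 12823 of the 55401 genes listed. It used 6 of the 9 samples. The 3 samples with LPS alone entered the same fit and are given beside the results. No sample had skatole without LPS. In LPS + Ska compared with DMSO the parts of LPS and of skatole therefore cannot be told apart. All cells were RAW264.7, a wild-type mouse macrophage line that grew out of a tumour induced in a male mouse by the Abelson leukemia virus, so that every sample comes from 1 immortal line. Per the labels the treatment lasted 24 h, with DMSO, DMSO + LPS or LPS + Skatole, and the replicates of each group were numbered 5, 6 and 7. The methods of the study give a longer time for the same samples. Nothing in the labels says whether the replicates were separate cultures, so that a p-value measures only the spread between these samples, which may be technical.

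LPS (lipopolysaccharide) is a component of the wall of Gram-negative bacteria. Macrophages bind it with Cd14, Ly96 and the receptor Tlr4, and the signal then reaches the transcription factor NF-kB, which switches on cytokine, chemokine and enzyme genes, and the factor Irf3, which switches on type I interferon. Secreted interferon acts back on the cells and raises a further set of antiviral genes, whereas many genes of the resting macrophage fall. Skatole (3-methylindole) is a product of bacterial tryptophan breakdown in the gut and is related to indoles that can bind the aryl hydrocarbon receptor.

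In LPS + Ska compared with DMSO, 1448 genes (11.3% of those tested) were called higher and 3229 (25.2%) were called lower, 36.5% in all. The genes called higher included the cytokines Csf3, Il1b and Tnf, the chemokines Ccl2, Ccl3, Ccl4 and Ccl7, the enzymes Nos2, Acod1 and Ptgs2, and 20 of 22 measured interferon-induced effectors. The resting macrophage factors Klf4 and Klf2, the growth factor Igf1, 16 of 24 cytokine receptors and 10 of 13 fatty acid synthesis genes were lower. A gene was called at a limma adjusted p below 0.05 together with a fold change above 1.5 or below 0.67. Fold changes are on the log2(TPM + 1) scale, on which the change of a gene with low TPM comes out too small. TPM is the share of a sample's transcripts scaled to a fixed total, and it keeps no sequencing depth, so that the depth of the samples is unknown.

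The 3 columns of LPS + Ska were tied, and so were those of LPS. Replicate 5 equalled the mean of replicates 6 and 7, within 1e-05 TPM, in 17658 of the 17658 genes in which both were above 0 with LPS + Ska, and in 0.06% of such genes with DMSO. So no more than 2 independent values per gene stand behind the LPS + Ska columns. The fit used 2 recovered values, taken as replicate 5 shifted up and down by 0.5 times its distance to replicate 6. The factor of 0.5 is an assumption. With LPS + Ska, 1 of replicates 6 and 7 was at 0 in 4047 genes, and in 3124 of these the other was 3 times replicate 5. This factor gives that value where 1 recovered value is 0 and a negative column is listed at 0. Replicates 6 and 7 taken as the 2 values would have a wider spread, and that choice was not tried. Single columns are printed as deposited, in the order 5, 6, 7. An SD with LPS + Ska is over the 2 recovered values. With the 3 columns as deposited in the fit, 1450 genes were higher and 3271 lower.

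Which genes were called also followed the base composition of the transcripts. The genes were split into 5 equal bins by GC content. In the bin with the lowest GC content 25.4% were called higher and 3.59% lower. In the bin with the highest GC content 3.86% were higher and 55.9% lower. The median deviation of the richest minus that of the poorest bin was 0.46 to 0.56 on the log2 scale in the DMSO columns and -0.67 to -0.31 in the LPS + Ska columns, without overlap, so that the treatment and this trend cannot be told apart. When the trend of each column on GC content was removed, 914 genes were higher and 2615 lower, of which 739 and 1974 were also called without the removal. Another scaling also moved the split: the median log2 fold change of all genes was -0.17, and median-ratio scaling, which brings it to -0.0043, gave 2192 higher and 2257 lower genes. The higher genes were thus 31.0% of those called as deposited and 49.3% after this scaling, and 48.7% with the GC trend removed and the columns centred. Changes are therefore to be read beside the median of all genes, and the calls of a group of genes with the GC trend removed are given with it.

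**Figure D1:**
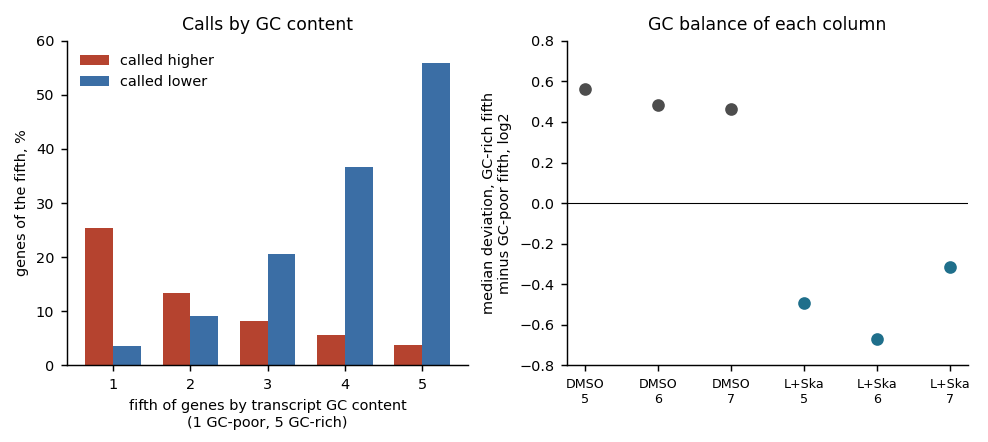
Left, the percentage of genes called higher (red) and lower (blue) in LPS + Ska compared with DMSO in each of 5 equal bins of genes by transcript GC content. Right, the median deviation of the GC-richest bin minus that of the GC-poorest in each of the 6 columns (log2), which lies between 0.46 and 0.56 with DMSO and between -0.67 and -0.31 with LPS + Ska.

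The cells carried the markers of macrophages in both groups. Of 9 macrophage markers 8 were detected, and Mertk was listed at 0. The 8 had a median log2 fold change of -0.35, with 1 called higher, Cd14, and 2 called lower, Csf1r and Spi1. The lysozyme gene Lyz2, the most abundant, was at 8866 to 9673 TPM with DMSO and 9915 to 10207 with LPS + Ska, while Cd68 was at 806 to 857 against 574 to 642 and was not called. All markers of T cells, epithelial cells and mast cells were listed at 0 in the 6 columns, those of fibroblasts, B cells and endothelial cells stayed below 1 TPM, and of the neutrophil markers S100a8 alone passed 1 TPM. Each column summed to between 999895 and 1000145 TPM, with 12498 to 13012 genes at 1 TPM or above.

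Promoter sequence from RefSeq (GRCm38.p6, the patch series of the mm10 build of the files) was found for 885 of the genes called higher and 2342 of those called lower. The stretches printed here belong to 6 of the raised genes, were chosen after their values and matches had been seen, and show the motifs through which interferon and NF-kB are known to act and the box that places the start. They read 5′ to 3′ on the strand of the gene, with motif matches in capitals.
Isg15, chr4:156200859-156200918, minus strand, 100 to 41 bases before the start: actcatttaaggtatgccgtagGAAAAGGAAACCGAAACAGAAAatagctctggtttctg
Oas1a, chr5:120907526-120907585, minus strand, 60 to 1 bases before the start: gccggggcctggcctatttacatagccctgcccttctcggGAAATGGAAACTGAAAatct
Cxcl2, chr5:90903779-90903838, plus strand, 120 to 61 bases before the start: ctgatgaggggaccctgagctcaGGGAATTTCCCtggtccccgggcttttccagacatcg
Casp4, chr9:5308739-5308818, plus strand, 110 to 31 bases before the start: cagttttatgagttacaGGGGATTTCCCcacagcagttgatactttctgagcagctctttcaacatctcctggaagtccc
Acod1, chr14:103046952-103047011, plus strand, 60 to 1 bases before the start: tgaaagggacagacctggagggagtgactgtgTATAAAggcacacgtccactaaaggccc
Irf7, chr7:141266425-141266484, minus strand, 60 to 1 bases before the start: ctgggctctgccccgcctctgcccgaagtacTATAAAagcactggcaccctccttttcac

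Of these 6 genes, Casp4 was not called with the GC trend removed. The capitals mark the interferon-stimulated response element (GAAA repeated after any 2 bases) in Isg15, where 3 matches overlap, and in Oas1a, where 2 matches overlap. In Cxcl2 and Casp4 they mark overlapping matches to the kB motif, and in Acod1 and Irf7 the TATA box TATAAA. The starts are those of RefSeq. The position of Acod1 given below is from another annotation and begins inside the printed stretch, before the TATAAA match. On either strand within 250 bases before to 50 after the start, the interferon element was found in 5.57% of the 1095 promoters of genes called higher, 2.59% of the 3053 promoters of genes called lower, 3.11% of the 11061 promoters of all genes tested and 3.44% of all 32851 promoters. The TATA box was found in 8.95%, 6.16%, 6.72% and 13.6% of the same sets. The AP-1 motif TGANTCA was found in 7.67%, 4.55%, 4.92% and 7.81%, and the kB motif in 11.5%, 10.8%, 10.1% and 8.46%. The promoters differed in base composition, with a median GC content of 58.7% for genes called higher, 60.7% for lower and 61.0% for not called. The shares were not corrected for this difference. They were not tested, and a match is not a bound site.

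Cytokine genes moved in both directions, with 8 of the 18 measured higher and 6 lower and a median log2 fold change of 0.41, and 8 and 3 were called with the GC trend removed. Csf3 (ENSMUSG00000038067, chromosome 11, 98701263 to 98703629 in mm10), which encodes the granulocyte growth factor G-CSF, was listed at 0 in all 3 DMSO columns and at 45.1, 44.4 and 45.7 TPM with LPS + Ska (adjusted p = 4.4e-08). Il1b, a pyrogenic cytokine made as a precursor, was at 0, 0.0961 and 0.369 TPM with DMSO and at 10.2, 13.7 and 6.71 with LPS + Ska (log2 fold change 3.28 ± 0.20 SE, adjusted p = 6.4e-06). Il1rn, which encodes the secreted antagonist of the same receptor, was at 11.2, 11.5 and 26.1 TPM against 130, 138 and 122 (log2 fold change 3.03 ± 0.30 SE, adjusted p = 6.2e-05). As levels per transcript length, the antagonist stood above Il1b in each LPS + Ska column. With LPS alone the means were 28.1 TPM for Il1b and 108 for Il1rn, and Il1b was called lower with skatole than without (log2 fold change -1.39, adjusted p = 0.0056). In that comparison 2.96% of genes were called higher and 4.59% lower, 7.55% in all. The call was lost with a pseudocount of 0.1 (adjusted p = 0.14) and without LPS + Ska replicate 7 (adjusted p = 0.051).

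Tnf, the gene of tumour necrosis factor, was at 53.1, 52.8 and 103 TPM with DMSO and at 207, 205 and 209 with LPS + Ska (log2 fold change 1.63 ± 0.25 SE, adjusted p = 6.5e-04), and at 210 with LPS. Il18, a cytokine that is cut by the same protease as Il1b, was 1.12 ± 0.14 (SE) higher on the log2 scale (adjusted p = 2.3e-04). Tnf and Il18 were named after their values had been seen. Igf1 (ENSMUSG00000020053, chromosome 10, 87858265 to 87937042), a growth factor made by resting macrophages, stood at 33.2, 26.8 and 31.9 TPM with DMSO and at 0.89, 1.15 and 0.632 with LPS + Ska, the steepest fall of any called gene with separate columns (log2 fold change -4.06 ± 0.15 SE, adjusted p = 9.7e-07). The other cytokine genes called lower were Il15, Il16, Tnfsf9, Tnfsf12 and Tnfsf13b, at log2 fold changes from -1.01 to -0.63. With the GC trend removed, Il16, Tnfsf9 and Tnfsf12 were not called. The call of Tnfsf9 was also lost without DMSO replicate 7 and that of Tnfsf12 without LPS + Ska replicate 6. Of the 33 cytokine genes listed, 15 had too low a mean to be tested, among them Il6, which was listed at 0 in the DMSO columns and at 0.259, 0.139 and 0.379 TPM with LPS + Ska. Also untested were Ifnb1 and both Il12 subunit genes Il12a and Il12b, each listed at 0 with LPS + Ska. The cytokine counts and median thus describe the genes measured and not the list.

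**Figure D2:**
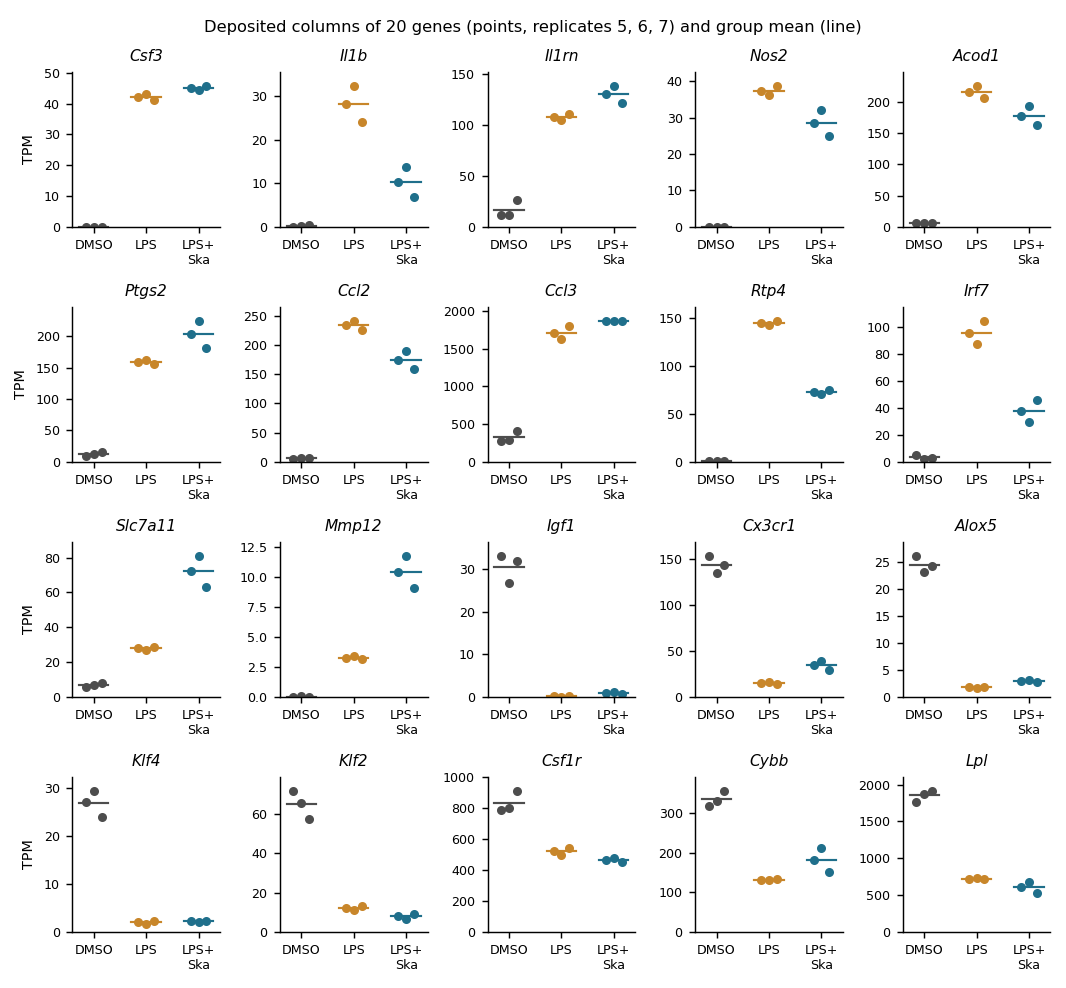
TPM of 20 genes in the deposited columns (points, replicates 5, 6 and 7) of DMSO (grey), LPS (orange) and LPS + Ska (blue), with the group mean as a line and each vertical axis starting at 0. Csf3 and Nos2 are listed at 0 with DMSO, Ptgs2 reaches 182 to 224 TPM with LPS + Ska, and Igf1 and Klf4 lie below 4 TPM in every LPS + Ska column.

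Of 11 chemokine genes measured, 8 rose and 2 fell, with a median log2 fold change of 1.51 (6 rose and 2 fell with the GC trend removed). The other 11 of the 22 listed were too low to be tested. A low gene could pass only through the group in which it was high. The chemokine counts and median therefore describe the genes measured and not the list. Ccl2 (ENSMUSG00000035385, chromosome 11, 82035571 to 82037453), which draws monocytes, was at 4.64, 6.3 and 5.82 TPM with DMSO and at 175, 190 and 159 with LPS + Ska (log2 fold change 4.74 ± 0.11 SE, adjusted p = 1.4e-07). Its neighbour Ccl7, another monocyte attractant, was at 0, 0 and 0.256 TPM against 15, 15.9 and 14.1 (adjusted p = 1.2e-06). Ccl3, a ligand of the receptor Ccr1, rose from 277, 291 and 403 to 1869, 1870 and 1869 TPM. The columns of these genes did not overlap between the groups. The rule that named Ccl2 and Ccl7 required this, and 22.8% of all genes were higher without overlap. Means with LPS alone were similar, at 234 TPM for Ccl2, 17.5 for Ccl7 and 1716 for Ccl3. None of these genes was called different between LPS and LPS + Ska.

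Cxcl2, a neutrophil attractant whose kB match is shown above, varied among the DMSO columns, at 23.4, 46.9 and 117 TPM, and was at 399, 356 and 443 with LPS + Ska (log2 fold change 2.95 ± 0.52 SE, adjusted p = 0.0013). Cxcl10, an interferon-induced attractant of T cells that was named after its values had been seen, was at 10.1, 7.11 and 7.44 TPM with DMSO and at 13.6, 17.2 and 10.0 with LPS + Ska. The columns of the groups overlapped (log2 fold change 0.67 ± 0.16 SE, adjusted p = 0.0069). Without LPS + Ska replicate 6 it was not called (adjusted p = 0.078), and without DMSO replicate 6 its fold change was within the limit (log2 fold change 0.58, adjusted p = 0.019). It was not called with the GC trend removed either. Over all alternatives its adjusted p ran from 0.0013 to 0.078. Against LPS alone, Cxcl10 was called lower with LPS + Ska (log2 fold change -1.50, limma adjusted p = 0.0020). In that comparison 1 of the 11 measured chemokines was called lower and 1 higher, against 4.59% and 2.96% of all genes. A gene that fell against DMSO was Cxcl14 (log2 fold change -2.21, adjusted p = 3.0e-05). The other was Cxcl16, the membrane-bound ligand of Cxcr6, which went from 102, 101 and 94.2 to 26.6, 28 and 25.2 TPM (log2 fold change -1.86, adjusted p = 1.3e-06). Ccl5 was too low to be tested, at 1.23, 0.962 and 1.49 TPM with LPS + Ska.

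The interferon-induced effectors had the highest median of the lists, 1.95, with 20 of 22 measured genes called higher (17 with the GC trend removed). Ifit2 and Ifi35, at -0.28 and 0.58, were not called. As 12 of the 34 genes on the list were too low to be tested and a low gene could pass only through the group in which it was high, the count and the median describe the genes measured and not the list. Rtp4 (ENSMUSG00000033355, chromosome 16, 23520291 to 23614222), an interferon-induced receptor transporter, was at 0.729, 0.679 and 0.606 TPM with DMSO and at 72.4, 70.7 and 74.1 with LPS + Ska (log2 fold change 5.46 ± 0.09 SE, adjusted p = 2.5e-08). Ifi44 was at 3.85, 2.13 and 4.27 TPM against 58.5, 61.8 and 55.1 (log2 fold change 3.79, adjusted p = 3.3e-06). For Usp18, the protease that takes Isg15 off proteins and damps interferon signalling, the values were 0.59, 3.14 and 2.95 against 38.3, 35.4 and 41.2 TPM (log2 fold change 3.73, adjusted p = 5.2e-05). All 3 genes lay above every DMSO column, which the rule that named the largest rises required. Of all genes tested, 22.8% were higher without overlap.

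With LPS alone these genes had higher means of 144 TPM for Rtp4, 206 for Ifi44 and 99.6 for Usp18, and 16 of the 22 measured effectors were called lower when LPS + Ska was set against LPS (median -1.01). The number was 12 to 13 when an LPS + Ska replicate was left out and 18 with the deposited columns, with or without the replicate block. LPS compared with DMSO had 21 of the 22 called higher with a median of 2.88, in a comparison in which 12.2% of genes were called higher and 20% lower. Both comparisons with DMSO use the same DMSO columns. Of the genes with the interferon element shown above, Isg15, a ubiquitin-like protein, was at 0.92, 1.40 and 0 TPM with DMSO and at 7.28, 2.69 and 11.9 with LPS + Ska (log2 fold change 2.26, adjusted p = 9.0e-04). Oas1a, a sensor of double-stranded RNA, was at 18.5, 19.0 and 19.9 against 81.6, 76.4 and 86.8 TPM (log2 fold change 2.04, adjusted p = 8.7e-07). Ifitm3, a membrane protein that blocks viral entry, rose by 2.01 on the log2 scale (adjusted p = 4.3e-07) and had the highest level of the list, 1136 to 1239 TPM with LPS + Ska. These 3 genes were named after their values had been seen.

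Among the IRF and STAT transcription factors 3 genes rose and 7 of 14 fell, with a median of -0.51 (3 and 6 with the GC trend removed). Among the genes that rose were Irf7 and Irf9, which carry the interferon signal or are induced by it. Irf7 was at 5.26, 2.29 and 2.51 TPM with DMSO and at 38, 29.8 and 46.3 with LPS + Ska (log2 fold change 3.22 ± 0.25 SE, adjusted p = 2.0e-05). Irf9 rose by 1.56 (adjusted p = 2.5e-05) on the log2 scale. Stat2, the partner of Irf9, went the other way, from 12.9, 17.7 and 14.0 to 6.38, 7.5 and 5.26 TPM (log2 fold change -1.10, adjusted p = 4.5e-04), and was at 12.4 with LPS. Irf3, which the LPS receptor activates to start interferon production, went from 65.3, 57.5 and 51.7 to 26.1, 24.8 and 27.4 TPM (log2 fold change -1.12, adjusted p = 3.8e-05), with a mean of 29.1 with LPS. It was named after its values had been seen. Irf5 and Irf8, factors of the macrophage lineage, had log2 fold changes of -1.32 (adjusted p = 2.4e-06) and -1.27 (adjusted p = 2.7e-05).

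The NF-kB subunits and inhibitors as a list changed little, with 2 of 14 higher, 3 lower and a median of -0.16, near the -0.17 of all genes. With the GC trend removed 3 were higher and 1 lower, and without DMSO replicate 7 the numbers were 4 and 3. Nfkbiz, an inducible nuclear partner of NF-kB, was at 7.38, 8.22 and 20.6 TPM with DMSO and at 38.3, 36.6 and 39.9 with LPS + Ska (log2 fold change 1.73, adjusted p = 0.0027). Bcl3, another nuclear member, was 0.72 higher (adjusted p = 2.2e-04). The subunit gene Rela had a log2 fold change of -0.78 (adjusted p = 2.7e-05) that moved to -0.29, within the fold change limit, with the GC trend removed. Of 21 Toll-like receptor adaptors and kinases 2 rose, Traf1 and Ripk2, and 2 fell, Irak1 and Traf2 (2 and 3 with the GC trend removed, 4 and 2 under median-ratio scaling).

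Sensors of microbes were mixed, with 8 of 23 higher and 4 lower, or 6 and 5 with the GC trend removed, when the median turned from 0.17 to -0.08. Of the genes that bind LPS, Cd14 was at 1328, 1260 and 1301 TPM with DMSO and at 2218, 2178 and 2259 with LPS + Ska (log2 fold change 0.77 ± 0.05 SE, adjusted p = 9.8e-06), and Ly96 rose by 1.6 (adjusted p = 2.4e-04). The receptor gene Tlr4 itself was at 35.0, 39.7 and 42.6 TPM against 29.5, 34.2 and 24.8 (log2 fold change -0.39, adjusted p = 0.012), within the limit. Ly96 and Tlr4 were named after their values had been seen. Ddx58 and Ifih1, cytosolic sensors of viral RNA that are also induced by interferon, rose by 2.67 (adjusted p = 7.8e-06) and 1.99 (adjusted p = 6.8e-06) on the log2 scale. The receptors that were called lower were Tlr2, Tlr9, Tlr13 and Clec7a, the last of which binds fungal glucan and went from 26.7, 34.9 and 31.6 to 6.09, 6.86 and 5.33 TPM (log2 fold change -2.17, adjusted p = 6.4e-06). The call of Tlr9 was lost with the GC trend removed.

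Among the 8 measured genes of arginine, nitric oxide and itaconate metabolism 3 rose, also with the GC trend removed. Nos2 (ENSMUSG00000020826, chromosome 11, 78920787 to 78960254), the inducible nitric oxide synthase, was listed at 0 in the DMSO columns and at 28.5, 32.1 and 25 TPM with LPS + Ska (adjusted p = 1.6e-07). Acod1 (ENSMUSG00000022126, chromosome 14, 103046977 to 103056573), which makes itaconate, was at 6.42, 6.00 and 6.80 TPM against 178, 193 and 163 (log2 fold change 4.59 ± 0.08 SE, adjusted p = 2.5e-08). Odc1, the first enzyme of polyamine synthesis, was at 158, 154 and 191 against 742, 763 and 721 TPM (log2 fold change 2.15, adjusted p = 1.4e-06). Means with LPS alone were 37.5 TPM for Nos2, 216 for Acod1 and 738 for Odc1, and none of the 3 was called different between LPS and LPS + Ska (adjusted p from 0.057 to 0.97).

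In the prostaglandin and leukotriene pathway 3 of 12 genes rose and 6 fell (2 and 6 with the GC trend removed), and the cyclooxygenase genes moved in opposite directions. Ptgs2, the inducible cyclooxygenase, was at 9.83, 12.6 and 14.9 TPM with DMSO and at 203, 224 and 182 with LPS + Ska (log2 fold change 3.94 ± 0.14 SE, adjusted p = 9.5e-07). Ptgs1, the constitutive one, was at 32.2, 35.7 and 33.4 against 4.47, 4.55 and 4.39 TPM (log2 fold change -2.67 ± 0.11 SE, adjusted p = 1.4e-06). Upstream and downstream of Ptgs2, the phospholipase gene Pla2g4a rose by 0.74 (adjusted p = 5.1e-05), or 0.33 and not called with the GC trend removed, and the prostaglandin E synthase gene Ptges rose by 0.92 (adjusted p = 0.0019). On the leukotriene side Alox5, the 5-lipoxygenase, went from 26.2, 23.2 and 24.2 to 2.93, 3.08 and 2.78 TPM (log2 fold change -2.70, adjusted p = 1.6e-06). Ltc4s, leukotriene C4 synthase, changed in the same direction (log2 fold change -1.83, adjusted p = 9.3e-04).

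Of 10 costimulatory and checkpoint genes 7 could be tested, of which 3 were called higher and 4 lower, also with the GC trend removed. The call of Cd83 among the lower genes was lost without LPS + Ska replicate 6 or 7. Cd80, a ligand of the T cell receptor partner Cd28, was at 2.18, 2.52 and 4.21 TPM with DMSO and at 18.6, 18.2 and 18.9 with LPS + Ska (log2 fold change 2.33, adjusted p = 2.5e-05). Its mean with LPS was 41.3. Cd274, which encodes the inhibitory ligand PD-L1, rose by 1.02 (adjusted p = 5.8e-04) and Cd40 by 0.81 (adjusted p = 0.0020). The inhibitory receptors Havcr2 and Vsir fell by 2.05 (adjusted p = 3.5e-06) and 1.63 (adjusted p = 7.1e-06) on the log2 scale. Of the metalloprotease genes, Mmp12, the macrophage elastase, was at 0, 0.0193 and 0 TPM with DMSO and at 10.4, 11.8 and 9.07 with LPS + Ska, above its mean of 3.26 with LPS (log2 fold change against LPS 1.42, adjusted p = 0.0026). Mmp9, a gelatinase, was at 0.291, 0.0394 and 0.234 against 8.88, 8.95 and 8.82 TPM (log2 fold change 3.06, adjusted p = 3.2e-06), under its mean of 16.7 with LPS. Against LPS its log2 fold change was -0.84 (adjusted p = 0.014 by limma). That call was lost with a pseudocount of 0.1 (adjusted p = 0.22) and without LPS + Ska replicate 6 or 7.

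**Figure D3:**
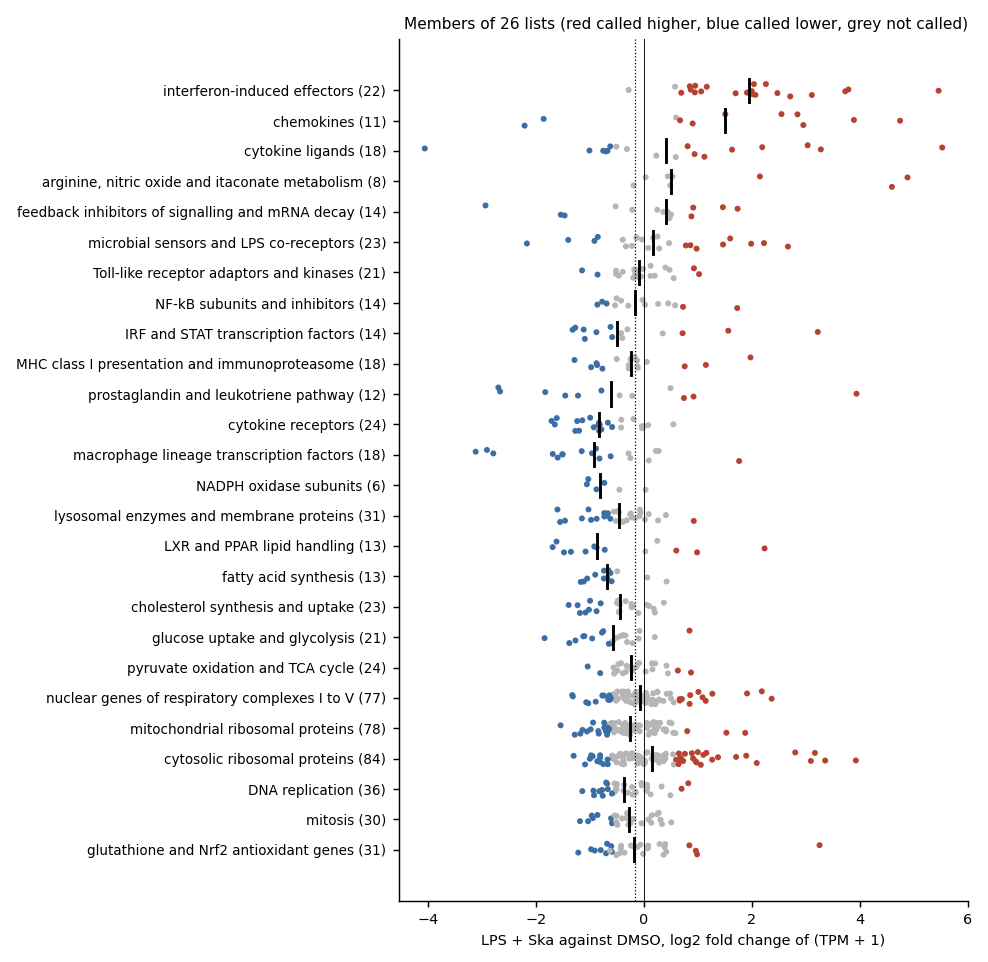
Log2 fold change of (TPM + 1) in LPS + Ska compared with DMSO for the measured members of 26 lists (number in parentheses), red where called higher, blue where called lower and grey where not called. Black bars are list medians, from 1.95 for the interferon-induced effectors to -0.93 for the macrophage lineage factors, and the dotted line is the median of all genes, -0.17.

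Transcription factors of the macrophage lineage had a median of -0.93, with 12 of 18 lower and 1 higher (10 and 1 with the GC trend removed). Klf4 (ENSMUSG00000003032, chromosome 4, 55527143 to 55532466), a factor of monocyte development, was at 27.2, 29.4 and 24.1 TPM with DMSO and at 2.2, 2.06 and 2.33 with LPS + Ska (log2 fold change -3.12 ± 0.13 SE, adjusted p = 1.4e-06). Klf2, which restrains inflammatory genes, went from 71.9, 65.7 and 57.6 to 7.77, 6.46 and 9.09 TPM (log2 fold change -2.91, adjusted p = 1.2e-06). Every LPS + Ska column of these genes lay below the lowest DMSO column, which the rule that named the largest falls required. Of all genes tested, 42% were lower without overlap. Cebpa and Runx1, named after their values had been seen, fell by 1.69 (adjusted p = 8.6e-06) and 1.6 (adjusted p = 3.2e-06), and Spi1, the master factor PU.1, by 0.83 (adjusted p = 1.1e-05) on the log2 scale, the last of these not called with the GC trend removed. Myc was the member that rose, from 7.72, 7.16 and 6.81 to 27.0, 30.9 and 23 TPM (log2 fold change 1.76, adjusted p = 8.0e-06).

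Of 24 cytokine receptor genes 16 were called lower (14 with the GC trend removed), with a median of -0.83. Il6st, the signalling chain shared by the receptors of the Il6 family, was at 29.7, 27.9 and 31.4 TPM with DMSO and at 8.76, 10.1 and 7.42 with LPS + Ska (log2 fold change -1.65, adjusted p = 7.2e-06). Il10ra, the receptor of the anti-inflammatory Il10, went from 20.6, 23.7 and 20.1 to 6.31, 6.36 and 6.26 TPM (log2 fold change -1.62, adjusted p = 1.0e-05). Csf3r, the receptor of the Csf3 product, went from 2.65, 4.75 and 4.51 to 0.486, 0.42 and 0.552 TPM while its ligand appeared (log2 fold change -1.71, adjusted p = 4.0e-04). Csf1r, the receptor on which macrophages depend, was at 835 ± 67.6 TPM with DMSO (SD, n = 3) and at 467 ± 8.66 with LPS + Ska (SD, n = 2 recovered values), which gave -0.83 on the log2 scale (adjusted p = 3.0e-05). That call was lost with the GC trend removed and the columns centred. Under median-ratio scaling 14 of the receptors were lower and 1 higher, and with the GC trend removed and the columns centred 10 and 1.

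Of 12 chemokine, complement peptide and formyl peptide receptor genes 6 could be tested. Of these 3 were called higher and 1 lower, also with the GC trend removed. A low gene could pass only through the group in which it was high, so that these counts describe the genes measured. Among the untested genes, Cxcr4 was at 1.17, 0.774 and 1.78 TPM with DMSO and at 0.043, 0.129 and 0 with LPS + Ska. Fpr1, also untested, was listed at 0 with DMSO and at 0.383, 0.193 and 0.572 TPM with LPS + Ska. Ccr1, a receptor of Ccl3, was at 0.372, 0.635 and 0.573 TPM with DMSO and at 4.42, 4.8 and 4.04 with LPS + Ska (log2 fold change 1.83, adjusted p = 3.6e-05). Fpr2, a formyl peptide receptor, was listed at 0 with DMSO and at 2.07, 1.99 and 2.15 TPM with LPS + Ska (adjusted p = 3.6e-04). Cx3cr1, the fractalkine receptor of resting macrophages, was at 153, 135 and 144 against 34.3, 39.2 and 29.5 TPM (log2 fold change -2.04, adjusted p = 1.8e-06), and its mean with LPS alone was 14.8 TPM, lower than with LPS + Ska (log2 fold change of LPS + Ska against LPS 1.16, adjusted p = 6.1e-04).

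Other genes with the largest falls included Lsp1, an actin-binding protein of leukocytes, Fgd2, an activator of Cdc42, Cd24a, Tmem176b, Atf3, S1pr1, a receptor of sphingosine phosphate, Zfp385a, Mgst3, Odf3l1 and the immunoglobulin segment Ighj1. Lsp1 was at 62.2, 66.9 and 60.5 TPM with DMSO and at 3.86, 5.08 and 2.64 with LPS + Ska (log2 fold change -3.73, adjusted p = 9.5e-07). Atf3, a repressor that LPS is known to induce early, was at 92.5, 104 and 151 TPM with DMSO and at 13.9, 12.9 and 15 with LPS + Ska (log2 fold change -2.94, adjusted p = 6.4e-06). Dusp1 and Zfp36, further early feedback genes, had log2 fold changes of -1.54 (adjusted p = 7.5e-05) and -1.47 (adjusted p = 4.1e-05), whereas the phosphatase gene Dusp5 rose by 1.73 (adjusted p = 3.3e-05). Of 14 feedback genes 4 were higher and 3 lower (6 and 3 with the GC trend removed, 7 and 3 under median-ratio scaling).

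Among the largest rises were also Slc6a4, the serotonin transporter, and Lcn2, a binder of bacterial iron carriers. Slc6a4 (ENSMUSG00000020838, chromosome 11, 76998603 to 77032340) was at 1.47, 1.92 and 0.658 TPM with DMSO and at 43.3, 42.2 and 44.3 with LPS + Ska (log2 fold change 4.27 ± 0.21 SE, adjusted p = 2.8e-06), with a mean of 46.7 with LPS. Lcn2 was listed at 0 with DMSO and at 10.9, 7.61 and 14.2 TPM with LPS + Ska (adjusted p = 1.8e-06). The remaining genes of the 15 with the largest rise were Rps27 and the predicted genes Gm14275, Gm14303 and Gm5483, which are described with their copies in mind: reads of a gene with near-identical copies could have been split by the authors' counting.

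**Figure D4:**
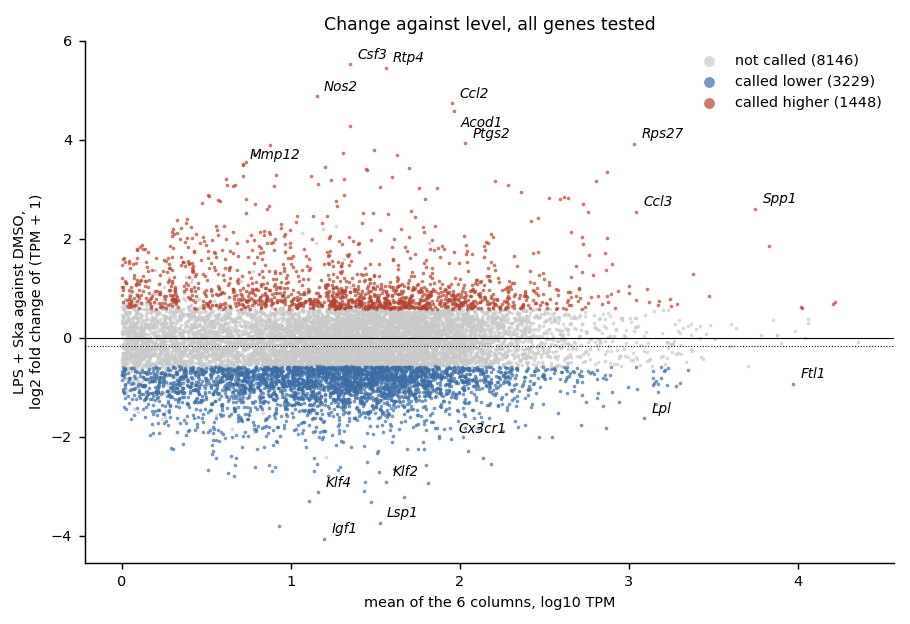
Log2 fold change of (TPM + 1) in LPS + Ska compared with DMSO against the mean of the 6 columns (log10 TPM) for the 12823 genes tested, 1448 called higher (red) and 3229 called lower (blue). Labelled genes are described in the text, the dotted line marks the median of all genes, -0.17, and Csf3, Rtp4 and Nos2 lie at the top with Igf1 and Lsp1 at the bottom.

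More genes fell than rose, but the largest changes were mostly upward. A fold change of at least 2 was reached by 536 called genes upward and 1223 downward, of at least 4 by 120 and 74, and of at least 8 by 39 and 8. The columns of the groups did not overlap in 2926 genes (22.8%) that were higher and 5386 (42%) that were lower with LPS + Ska. By TPM, the largest gain among nuclear genes was that of Spp1, the gene of osteopontin, from 1599, 1539 and 1568 to 9606, 10108 and 9104 TPM (log2 fold change 2.61 ± 0.06 SE, adjusted p = 1.2e-07). The largest loss was that of Ftl1, the ferritin light chain, from 12121, 12092 and 12642 to 6503, 5263 and 7742 TPM (log2 fold change -0.92, adjusted p = 4.1e-05), which was within the fold change limit with the GC trend removed. Lpl, lipoprotein lipase, went from 1766, 1877 and 1914 to 602, 677 and 527 TPM (log2 fold change -1.62, adjusted p = 1.4e-06).

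Lipid genes that were called were lower with 3 exceptions. Of 13 fatty acid synthesis genes 10 were called lower, with a median of -0.68. Of 23 cholesterol genes 8 were lower, with a median of -0.45, and of 13 genes of LXR and PPAR lipid handling 8 were lower and 3 higher, with a median of -0.88. With the GC trend removed 8, 10 and 6 genes of these lists were lower, and median-ratio scaling left 4, 8 and 7. With the GC trend removed and the columns centred, 2, 4 and 5 were lower, and so were 1481 of all 12810 genes. Fasn, the fatty acid synthase, was at 145, 137 and 146 TPM with DMSO and at 68.3, 76.1 and 60.6 with LPS + Ska (log2 fold change -1.05, adjusted p = 9.0e-06). Mvk, mevalonate kinase, went from 35.6, 37.8 and 34.9 to 13.2, 10.3 and 16 TPM (log2 fold change -1.40, adjusted p = 2.1e-05). Against the direction of the lipid handling list, the fatty acid binding proteins Fabp4 and Fabp5 rose by 2.23 (adjusted p = 7.0e-05) and 0.98 (adjusted p = 3.7e-05).

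Some genes of the oxidative burst and of the lysosome were also lower. Of 6 NADPH oxidase subunit genes 4 were called lower, with a median of -0.81 (3 with the GC trend removed). Cybb, the catalytic subunit, was at 318, 330 and 356 TPM with DMSO and at 182, 213 and 151 with LPS + Ska (log2 fold change -0.88, adjusted p = 4.7e-05). Its mean with LPS was 132, and it was not called different between LPS and LPS + Ska. Ncf1, a cytosolic subunit, was at 338, 346 and 340 against 163, 164 and 163 TPM (log2 fold change -1.06, adjusted p = 2.7e-06). Lysosomal genes had 12 of 31 lower and 1 higher, with a median of -0.46 (11 and 1 with the GC trend removed). Median-ratio scaling left 7 lower, with a median of -0.27, and so did removal of the GC trend with the columns centred. The hydrolase gene Man2b1 fell by 1.55 (adjusted p = 2.5e-06), and the exception was Cd63, a tetraspanin, which rose by 0.92 (adjusted p = 4.0e-06).

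With the GC trend removed 2615 of all 12810 genes were lower, and under median-ratio scaling 2257 of 12823. Glycolysis genes had 10 of 21 lower and 1 higher, with a median of -0.57, but 5 lower with the GC trend removed and 7 lower under median-ratio scaling. Slc2a6, a sugar transporter of the lysosome, had the largest change, from 129, 125 and 124 to 34.4, 37.6 and 31.2 TPM (log2 fold change -1.84, adjusted p = 9.6e-07). Pfkl, phosphofructokinase, fell by 1.39 (adjusted p = 5.2e-06). Replication genes had 10 of 36 lower and 2 higher, with a median of -0.37. Mitosis genes had 7 of 30 lower, with a median of -0.28. The replication and mitosis counts of lower genes were both near the share of all genes called lower, 25.2%. Mki67, the proliferation marker Ki-67, was at 163, 158 and 158 TPM with DMSO and at 81.4, 96.3 and 66.4 with LPS + Ska (log2 fold change -0.97, adjusted p = 2.5e-05), against a mean of 132 with LPS. With the GC trend removed 11 replication and 10 mitosis genes were lower, and median-ratio scaling left 6 and 5.

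The glutathione and Nrf2 antioxidant genes had 4 of 31 higher and 8 lower, with a median of -0.18, the level of all genes. With the GC trend removed 4 were higher and 2 lower, and with the columns also centred 8 and 2. Under median-ratio scaling 5 were higher and 4 lower, and the median turned to 0.0066. LPS compared with DMSO had 1 of the same genes higher and 18 lower, with a median of -0.73. LPS + Ska compared with LPS had 15 higher (median 0.55). Slc7a11, the cystine importer, was at 5.65, 6.47 and 8.08 TPM with DMSO and at 72.2, 81.0 and 63.4 with LPS + Ska (log2 fold change 3.25 ± 0.13 SE, adjusted p = 1.3e-06), also above its mean of 27.8 with LPS. Prdx1, a peroxiredoxin, and Gclm, the modifier of glutathione synthesis, were above DMSO by 0.98 (adjusted p = 6.1e-06) and 0.96 (adjusted p = 2.6e-05), and were at means of 885 and 71.3 TPM with LPS. Prdx1 was at 0.53, within the limit, with the GC trend removed. Gstm1, a glutathione transferase, stayed below DMSO at 18.3, 20.6 and 16 TPM against 38.6, 35.0 and 37.7 (log2 fold change -0.98, adjusted p = 7.3e-05). The antioxidant genes Cat, Gclc, Gsto1, Gstp1, Gstt2, Gstt3 and Nqo1 had log2 fold changes against DMSO from -0.63 to 0.41, none of them called.

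Of the 5 measured genes of the aryl hydrocarbon receptor complex and its targets 1 rose and 1 fell, also with the GC trend removed. The other 5 of the 10 listed were too low to be tested. The receptor gene Ahr was at 0.150, 0.189 and 0.0834 TPM with DMSO and at 0.240, 0.411 and 0.0689 with LPS + Ska. The targets Cyp1a1, Cyp1a2, Cyp1b1 and Aldh3a1 were listed at 0 in all 6 columns. The counts thus describe the genes measured and not the list. Ugt1a6a, a glucuronosyl transferase that is also a target of Nrf2, was at 2.94, 4.50 and 3.38 TPM with DMSO and at 8.94, 8.61 and 9.26 with LPS + Ska, with a mean of 1.21 with LPS (log2 fold change against DMSO 1.12, adjusted p = 0.0010). Ahrr, the repressor of the receptor and itself its target, went from 3.29, 2.52 and 3.96 to 0.618, 0.509 and 0.727 TPM (log2 fold change -1.38, adjusted p = 6.0e-04), with a mean of 0.889 with LPS.

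Mitochondrial and ribosomal genes were split by transcript. The 77 nuclear genes of respiratory complexes I to V had 12 higher and 13 lower, with a median of -0.08. This even split held under some settings. With the length trend removed 11 were higher and 13 lower, and with the deposited columns 12 and 13. In TPM without mitochondrial-genome and ribosomal protein genes 13 and 12 were called, and without DMSO replicate 7, 12 and 11. It did not hold under others: 13 were higher and 5 lower with the GC trend removed, and 14 and 3 with the columns also centred. Median-ratio scaling gave 16 and 6 (median 0.11). Without LPS + Ska replicate 6 the median was 0.0017, and without replicate 7 it was -0.18. The members that rose had short transcripts, with a median of 472.5 nt and at most 627 nt, against 635 nt for those that fell, and GC content moved with them, at medians of 48.0% and 55.9%. Atp5mpl, a small subunit of ATP synthase, was at 83.7, 70.7 and 101 TPM with DMSO and at 438, 431 and 445 with LPS + Ska (log2 fold change 2.36, adjusted p = 4.4e-06). Cox8a, of cytochrome oxidase, was at 381, 373 and 382 against 152, 99.2 and 206 TPM (log2 fold change -1.33, adjusted p = 6.1e-05). Of 84 cytosolic ribosomal protein genes 26 rose and 13 fell (24 and 8 with the GC trend removed, 26 and 14 with the length trend removed). Those that rose again had shorter transcripts, 568 nt against 658 nt at the median. Rps27 was at 135, 124 and 136 TPM with DMSO and at 2015, 1820 and 2209 with LPS + Ska (log2 fold change 3.92, adjusted p = 4.5e-07), with a mean of 558 with LPS. Rpl15 went from 1236, 1278 and 1211 to 506, 379 and 634 TPM (log2 fold change -1.30, adjusted p = 1.5e-05). Ribosomal proteins have many processed copies in the genome, so that these values are uncertain, and the part of transcript length and counting in them was not tested.

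The mitochondrial genome took 7.20 to 9.64% of TPM in the DMSO columns and 9.94 to 11.9% with LPS + Ska. Of its 13 protein genes 5 were called higher, but 2 higher and 4 lower with the GC trend removed, when the median turned from 0.20 to -0.45. The gene mt-Nd3 was at 171, 121 and 138 TPM with DMSO and at 927, 921 and 934 with LPS + Ska (log2 fold change 2.70, adjusted p = 4.8e-06). The gene mt-Atp8 was at 3246, 2958 and 2469 against 10487, 11929 and 9045 (log2 fold change 1.86, adjusted p = 6.4e-06). Both were called with the GC trend removed, at 2.01 and 1.16.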

How the data were processed

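RNA of RAW264.7 cells was sequenced by the authors, with 3 samples each of DMSO, LPS and LPS + Ska, and groups were taken from the sample labels. The submitters' processing notes name fastp 0.20.1, HISAT2 2.2.1, StringTie 2.0 and mm10. The authors deposited TPM per gene for the whole series, and no step that ties columns is described. Symbols were matched for 55141 of 55401 identifiers. Positions, lengths and GC content came from the GENCODE M21 annotation of the same build. Depth per sample is not known.

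The 3 DMSO columns and, for each LPS group, the 2 recovered values were fitted on log2(TPM + 1) with limma 3.58.1 in R 4.3.3 (lmFit, eBayes with an intensity trend), with Benjamini-Hochberg adjustment over the 12823 genes. Simulated data were used to test the code. The recovery assumes that the tie is as described, and the fold change limits follow the study. Alternatives tried were a mean TPM minimum of 5 or none, a pseudocount of 0.1, other scalings, the deposited columns with and without a replicate block, the compared groups alone, no intensity trend, other call rules and each replicate left out. Removal of GC or length trends (loess) was chosen after the data had been seen. Named genes were the 15 largest rises and falls among called genes without overlap, the 10 largest gains and losses of TPM, up to 4 called members of each list with those against its median, the genes the study names and the markers. Genes were also named outside this rule, as stated, and some genes that it names are not reported here. The members and lists were chosen with earlier results of these data known. Figures were drawn with matplotlib in Python.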

Additional observations from a re-analysis of the deposited data

How the results depend on the processing

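The counts of called genes (1448 higher, 3229 lower) stayed within 1.5 times of these values under a mean TPM minimum of 5 or none, a pseudocount of 0.1, TPM without mitochondrial-genome and ribosomal protein genes, the deposited columns, the compared groups alone, no intensity trend and removal of the length trend. Leaving out 1 replicate gave 1156 to 1529 higher and 2958 to 3325 lower genes. Median-ratio scaling gave 2192 higher genes, removal of the GC trend 914 higher with column levels kept and 1481 lower with columns centred. The adjusted p alone gave 2773 higher and 5029 lower, and a fold of at least 2 gave 536 and 1223. These rules differ in their limits, and the cause of the other moves was not tested. Of the genes named, Tnfsf12 and Bbc3 turned to 0.0091 and 0.042, not called, with the GC trend removed and columns centred. With the 3 deposited columns and the replicate number as a block, 1462 genes were higher and 3289 lower. Deviations of same-numbered DMSO and LPS + Ska columns correlated at 0.078, 0.03 and -0.033, so that no pairing by number was assumed for this comparison. Those of LPS and LPS + Ska correlated at 0.383, 0.149 and 0.125, in columns that are tied in both groups. Against LPS, 380 genes were higher and 588 lower, 458 and 710 with the deposited columns, 454 and 699 with the block added, and 184 to 265 and 280 to 496 without an LPS + Ska replicate, the lowest without replicate 7. The deposited columns gave 18 interferon-induced effectors lower and 15 Nrf2 genes higher, with or without the block (16 and 15 with the recovered values). Compared with the recovered values, the deposited columns with the block ended the calls of Cxcl14 and Cox6a1 against LPS and added those of Il15, Clec4n, Xaf1, Ndufb6 and Ankrd37. The block changed no call against DMSO among the genes named. TPM keeps no depth, so that counting error cannot be given, and low genes are the least certain. Each group is 1 line with at most 3 samples.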

Other observations

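The metallothionein genes Mt1 and Mt2, which bind zinc and copper, rose from 298, 249 and 284 to 885, 805 and 965 TPM (log2 fold change 1.68, adjusted p = 4.0e-06) and from 86.4, 77.3 and 81.1 to 588, 537 and 639 TPM (log2 fold change 2.83, adjusted p = 4.8e-07) by limma, the only members called among the 7 of their list, and with LPS alone their means were 554 and 350. Of 14 iron genes 2 were higher and 3 lower (2 higher with the GC trend removed), about the share of all genes. Tfrc, the transferrin receptor, rose by 1.06 (adjusted p = 4.6e-05), or 0.50 and not called with the GC trend removed. In the hypoxia list 3 of 11 genes were higher and 4 lower (2 and 2 with the GC trend removed), against 11.3% and 25.2% of all genes. Vegfa, an endothelial growth factor, was at 7.10, 8.57 and 8.02 TPM with DMSO and at 16, 16.7 and 15.3 with LPS + Ska (log2 fold change 0.94, adjusted p = 1.4e-04), while Ndrg1 fell by 1.30 (adjusted p = 4.6e-05). Constitutive proteasome genes had 5 of 33 higher and 1 lower, against 11.3% and 25.2% of all genes, or 2 and 1 with the GC trend removed. Psma3 was at 82.7, 84.0 and 73.6 TPM with DMSO and at 214, 218 and 210 with LPS + Ska (log2 fold change 1.41, adjusted p = 3.2e-06). Among 18 genes of MHC class I presentation, 3 were higher and 5 lower (2 and 2 with the GC trend removed), against 11.3% and 25.2% of all genes. H2-T23 rose by 1.97 (adjusted p = 8.1e-06) and H2-Q4 fell by 1.29 (adjusted p = 8.0e-06), in a family of similar genes whose reads the counting could have split. In the Bcl-2 and caspase list 4 of 21 genes were higher and 4 lower (2 and 4 with the GC trend removed), against 11.3% and 25.2% of all genes. The survival genes Bcl2l1 and Bcl2a1b rose by 1.05 (adjusted p = 1.7e-05) and 1.08 (adjusted p = 1.3e-04).

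The DMSO columns differed from each other at early response genes. Replicate 7 had the highest value of the DMSO columns for Tnf (103 TPM against 53.1 and 52.8), Cxcl2 (117 against 23.4 and 46.9), Il1rn (26.1 against 11.2 and 11.5), Nfkbiz (20.6 against 7.38 and 8.22), Atf3 (151 against 92.5 and 104), Egr2 (23.1 against 7.01 and 8.90), Nr4a1 (34.7 against 13.2 and 18.5) and Cd83 (40.0 against 18.6 and 21.2). These genes were chosen after their values had been seen. Egr2 and Cd83 were called lower with LPS + Ska (log2 fold changes -1.51 and -1.01, adjusted p = 0.011 and 0.012 by limma), and both calls were lost without LPS + Ska replicate 6 or 7 (adjusted p up to 0.084 and 0.078). Without DMSO replicate 7, 1529 genes were higher and 3221 lower, and Tnf, Cxcl2, Il1rn and Nfkbiz stayed called higher.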
